A study of Mus musculus with 16 samples.

Results

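The genes described here are 50 genes of mitosis and the mitotic spindle, chosen by name, in mouse macrophages given heme-albumin or LPS. They run from the cyclins and kinases that start mitosis, through the spindle checkpoint, the kinetochore and the spindle motors, to cytokinesis and the folding of chromosomes. All 50 had a probe, and all 50 passed the filter that left 12759 genes in the series, which asked that a probe be well above background in the sample channel on all 4 arrays of at least 1 group. Of the 50, 44 were well above background on all 16 arrays. The other 6 (Aspm, Esco2, Aurkb, Ncapg, Cenpf and Ttk) passed only through the groups in which they were high. Where a gene had several probes, the probe with the highest mean signal stood for it.

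RNA of murine stem cell derived macrophages was measured on 16 Agilent arrays of 2 colours, 4 for each of 4 groups, and the design text calls the 4 of a group independent biological replicates. The groups were an untreated control at 0 h, heme-albumin at 50 µM for 8 h, heme-albumin at 200 µM for 8 h, and LPS at 10 ng/mL for 8 h. Heme-albumin is heme bound to albumin, and LPS (lipopolysaccharide) is a cell wall component of Gram-negative bacteria that macrophages sense through Toll-like receptor 4. On every array the red dye (Cy5) held the sample and the green dye (Cy3) held untreated reference RNA, and the control arrays held untreated RNA in both dyes. The labels give no strain, sex or age, and say no more of the stem cells. The sample titles also carry a tag for each replicate letter, the same in all 4 groups, and do not say what it stands for. Each array value below is the log2 ratio of sample over reference, and replicates are named a to d. A change is the difference between the mean log2 ratios of 2 groups, ± its standard error (4 arrays a group, limma fit over all genes). The word called is used of genes past both an adjusted p of 0.05 and a 2-fold change. The control was taken at 0 h and the treated cells at 8 h, so treatment and time in culture cannot be told apart in comparisons with the control. The arrays of a group also share their position on the slide, which cannot be told apart from the group. These are bulk samples, so fewer dividing cells and less RNA per dividing cell cannot be told apart.

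Mitosis runs on a short burst of gene expression. As cells pass from DNA replication into division, cyclin B with the kinase Cdk1 starts chromosome condensation and spindle assembly, kinetochores attach chromosomes to microtubules, and the spindle checkpoint holds back the anaphase-promoting complex until all are attached. Genes of this burst are known to be held silent in resting cells by the DREAM repressor complex and switched on in dividing cells by B-Myb and Foxm1, largely through a promoter element called CHR (cell cycle genes homology region) that often sits close to CCAAT boxes, which bind NF-Y. LPS is known to stop the growth of macrophages that divide in culture.

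Promoters of 5 of the genes are printed to show these elements, since the 5 cover the start of mitosis (Cdk1, Ccnb2, Plk1), its end (Cdc20) and a spindle pole gene that was low on every LPS array (Aspm). Each window runs from 250 bases before to 50 bases after the gene start, is taken from RefSeq (assembly GRCm38.p6) and is written in the direction of the gene. Capitals mark the CHR core TTTGAA and the CCAAT box core, or their reverse complements.
Cdk1, chr10:69352863-69353162, minus strand: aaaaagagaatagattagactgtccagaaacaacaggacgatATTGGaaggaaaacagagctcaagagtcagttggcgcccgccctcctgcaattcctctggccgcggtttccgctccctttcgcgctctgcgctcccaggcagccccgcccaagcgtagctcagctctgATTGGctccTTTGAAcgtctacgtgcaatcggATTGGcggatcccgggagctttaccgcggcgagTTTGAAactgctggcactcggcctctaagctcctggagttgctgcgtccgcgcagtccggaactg
Ccnb2, chr9:70421505-70421804, minus strand: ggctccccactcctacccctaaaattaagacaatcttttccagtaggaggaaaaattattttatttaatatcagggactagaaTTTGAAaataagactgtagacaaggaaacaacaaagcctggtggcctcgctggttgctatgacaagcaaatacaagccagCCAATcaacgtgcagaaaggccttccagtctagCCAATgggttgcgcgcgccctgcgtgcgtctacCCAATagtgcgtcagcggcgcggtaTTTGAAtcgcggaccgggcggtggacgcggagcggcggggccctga
Plk1, chr7:122159185-122159484, plus strand: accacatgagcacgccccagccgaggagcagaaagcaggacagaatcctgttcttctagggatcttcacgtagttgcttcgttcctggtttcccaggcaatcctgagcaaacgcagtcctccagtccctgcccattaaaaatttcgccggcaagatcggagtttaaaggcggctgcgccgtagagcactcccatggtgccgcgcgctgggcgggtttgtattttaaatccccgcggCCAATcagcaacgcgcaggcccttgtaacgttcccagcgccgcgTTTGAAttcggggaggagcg
Cdc20, chr4:118437294-118437593, minus strand: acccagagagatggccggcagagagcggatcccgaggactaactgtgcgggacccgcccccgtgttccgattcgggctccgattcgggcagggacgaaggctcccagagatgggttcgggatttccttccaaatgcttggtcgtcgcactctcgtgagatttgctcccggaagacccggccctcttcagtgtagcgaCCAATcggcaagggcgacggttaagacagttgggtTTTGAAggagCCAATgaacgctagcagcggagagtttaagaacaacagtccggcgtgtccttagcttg
Aspm, chr1:139454523-139454822, plus strand: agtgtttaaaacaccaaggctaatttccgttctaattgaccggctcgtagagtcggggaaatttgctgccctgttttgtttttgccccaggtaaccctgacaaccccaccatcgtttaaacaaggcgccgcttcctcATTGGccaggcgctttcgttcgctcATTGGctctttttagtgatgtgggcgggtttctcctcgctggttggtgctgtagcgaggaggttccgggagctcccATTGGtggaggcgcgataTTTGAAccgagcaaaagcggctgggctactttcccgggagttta
In Cdc20 the CHR core begins 18 bases before the start, between CCAAT cores that begin 53 and 8 bases before it. In Ccnb2 the 3 CCAAT cores begin 87, 54 and 21 bases before the start and CHR cores begin 4 bases after and 167 bases before it. Cdk1 has CHR cores that begin 71 and 15 bases before the start, Plk1 has 1 that begins 30 bases after it, and Aspm has 1 that begins 6 bases after it.

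RefSeq windows were matched by symbol for 39 of the 50 genes, which have 42 promoters. The CHR core TTTGAA, searched on both strands, was in 34 of the 42 promoters (81.0%), against 17.9% of all 32851 mouse promoters of the same length and 12.4% of the 13000 promoters of genes tested here. The CCAAT core was in 35 of the 42 (83.3%), against 37.4% of all promoters. Both were in 31 of the 42 (73.8%), against 6.95% of all, and the 2 motifs shared bases in 1 promoter. The variant core TTCGAA was in 3 of the 42 (7.14%), against 1.56% of all. From 100 bases before the start onwards, 31 of the 42 (73.8%) held TTTGAA, against 8.01% of all. By gene, 31 of the 39 had a TTTGAA and 32 had a CCAAT.

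A match is a description of these letters, not a shown binding site. The 8 genes with a window but no TTTGAA in it were Ccnb1, Nek2, Bub1, Mad2l1, Nuf2, Cenpe, Birc5 and Nusap1, and they too were lower after LPS, with changes from −1.84 (Mad2l1) to −3.90 (Nek2). Of these 8, only Bub1 holds the variant core TTCGAA, which begins 14 bases after its start. Whether the change after LPS depends on these elements was not tested. No window was matched for Ccna2, Cdc25c, Pbk, Foxm1, Spc24, Aurkb, Incenp, Kif20a, Tpx2, Smc4 and Esco2.

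**Figure D1:**
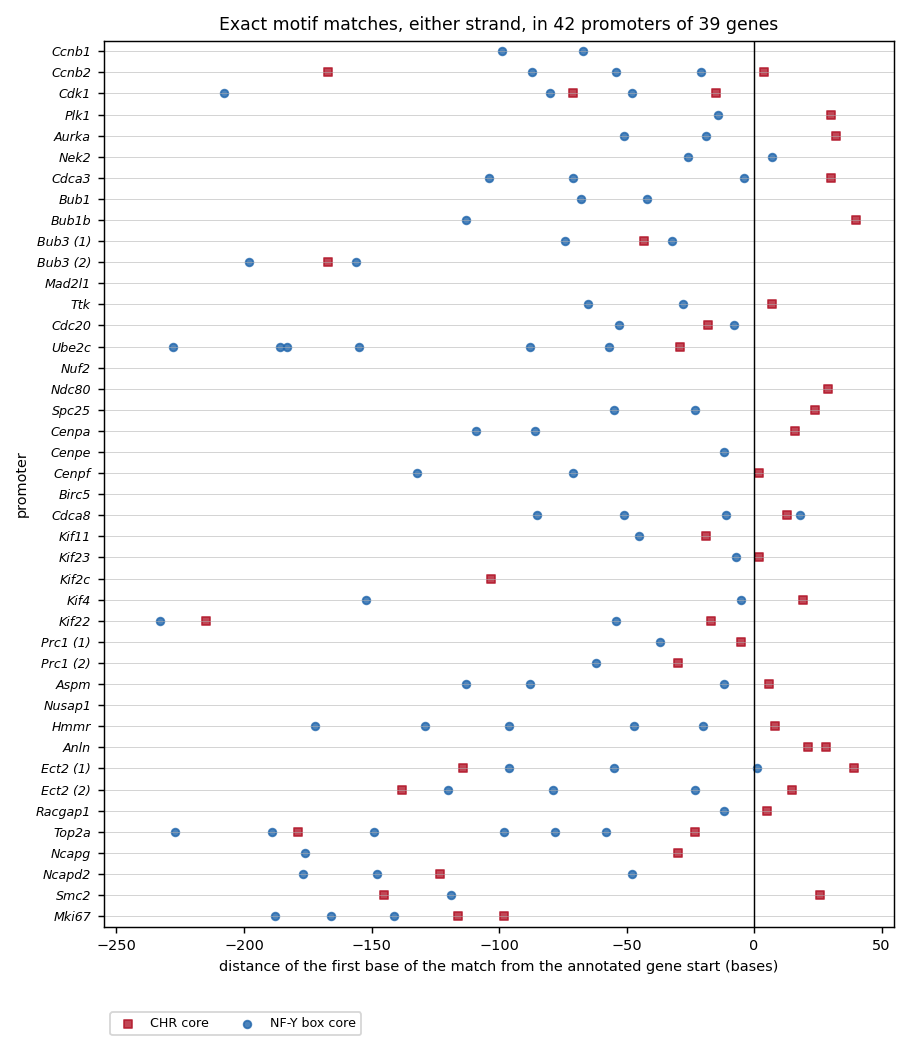
Positions of exact matches to the CHR core (red squares) and the CCAAT box core, which binds NF-Y (blue circles), on either strand in the 42 RefSeq promoters of 39 genes; the x axis is the distance in bases of the first base of the match from the annotated gene start, and each row is a promoter. Most CHR cores lie near the start, with 31 of the 42 promoters holding a match from 100 bases before it onwards.

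LPS lowered nearly the whole set. After LPS 48 of the 50 genes were called lower than in the control and 0 were called higher, beside 30.8% of all 12759 genes called in either direction and 16.7% called lower. The median change of the 50 was −2.90, or −2.80 with the 3 genes that were below background on every LPS array set at their bounds, beside −0.090 over all genes. In 49 of the 50 genes all 4 LPS arrays lay below all 4 control arrays, which held for 41.1% of all genes. The genes not called were Bub3, which fell by less than 2-fold, and Tpx2, which did not fall. The 48 include Aspm, Esco2, Aurkb, Ncapg, Cenpf and Ttk. These passed the filter only through the groups in which they were high, so their calls add no independent support. The array medians of the 50 were −3.15, −3.18, −2.67 and −2.52 on LPS replicates a to d, and −0.025, −0.0010, −0.028 and −0.0081 on the control replicates.

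**Figure D2:**
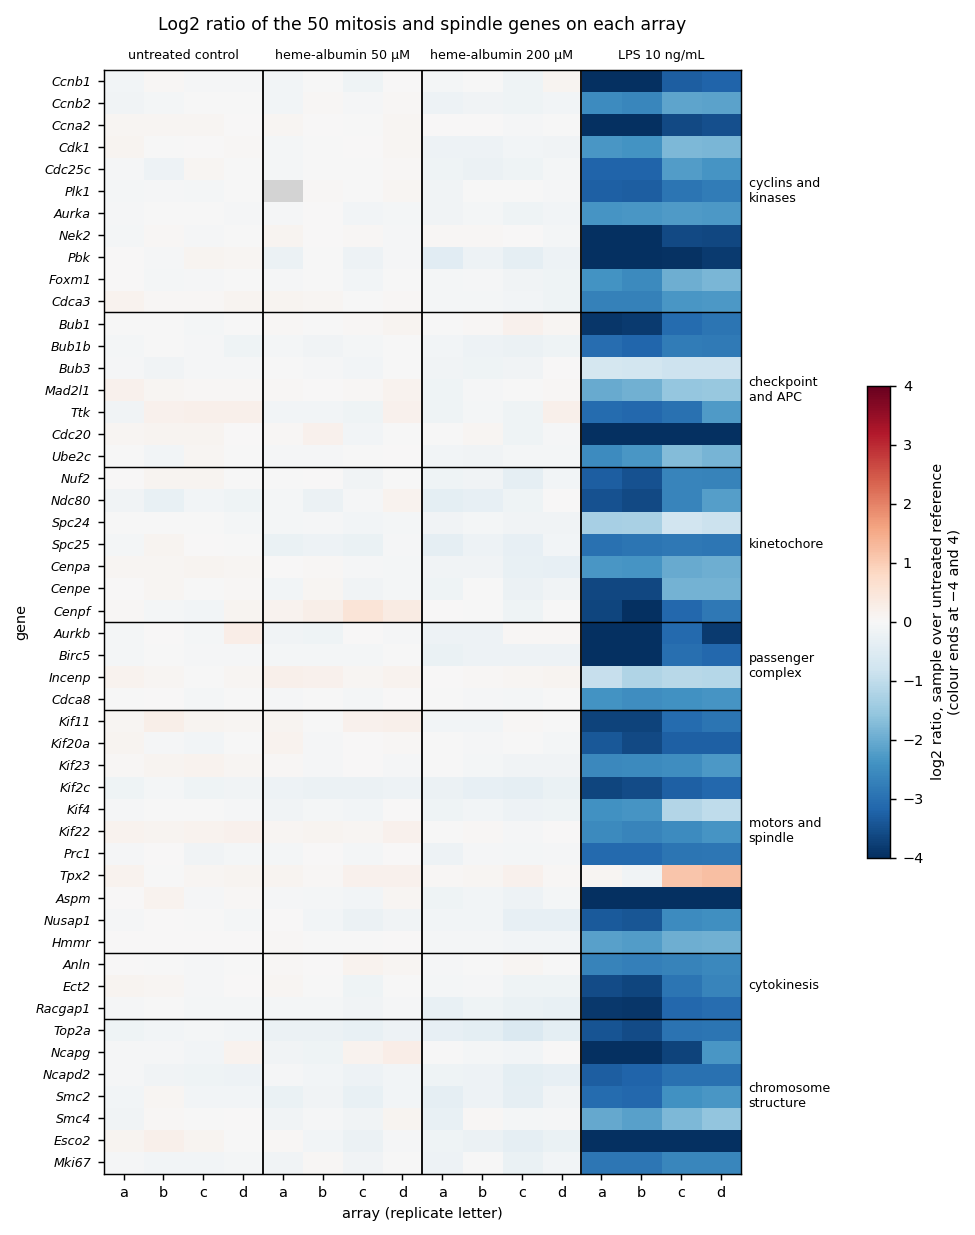
Log2 ratio of sample over untreated reference for each of the 50 genes (rows, grouped by role) on each of the 16 arrays (columns, replicates a to d of each group); blue is below the reference, red above, and the colour scale ends at −4 and 4, with 1 grey cell where the spot was an outlier. The LPS columns are blue in every row but Tpx2, and the control and heme-albumin columns stay near white.

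The cyclins, kinases and their regulators were called lower in 11 of 11 genes (median −2.69). Pbk, a mitotic kinase, read 0.0043, −0.062, 0.11 and 0.080 on the control arrays and −4.96, −4.93, −3.95 and −3.82 on the LPS arrays, a fall of 21.8-fold (−4.45 ± 0.212, adjusted p = 5.7e-11). Ccna2, cyclin A2, which drives replication and the entry into mitosis, read 0.082, 0.082, 0.088 and 0.022 on the control arrays and −4.08, −4.18, −3.59 and −3.51 with LPS (−3.91 ± 0.116, adjusted p = 3.3e-13). The centrosome kinase Nek2 fell nearly as far, to −4.06, −4.40, −3.60 and −3.63 (−3.90 ± 0.133). In these genes the arrays of both groups lie far apart, and replicates a and b lie lower than c and d. Ccnb1, cyclin B1, the partner of Cdk1 at mitotic entry, read −3.99, −4.06, −3.29 and −3.19 with LPS against −0.12 to 0.053 in the control. Its relative Ccnb2 read −2.53, −2.61, −2.12 and −2.15 with LPS against −0.15 to −0.011. Plk1, the polo-like kinase that acts from centrosome maturation to cytokinesis, read −3.26, −3.30, −2.92 and −2.79 against −0.072 to −0.0076. Each of these is a fall of at least 2-fold on every LPS array. The phosphatase Cdc25c, which activates Cdk1, read −3.20, −3.20, −2.23 and −2.36 with LPS against −0.20 to 0.067. Foxm1, the transcription factor that switches on many genes of this set, read −2.39, −2.54, −1.94 and −1.83 against −0.071 to 0.0064. Cdca3 read −2.71, −2.70, −2.32 and −2.29 against 0.053 to 0.14. Aurka, the kinase of the spindle poles, had 4 LPS values close together, −2.35, −2.34, −2.28 and −2.30, against −0.051 to −0.0043 in the control. The smallest change among the 11 was that of Cdk1, the kinase at the centre of the group, which read 0.095, −0.028, 0.0068 and 0.051 in the control and −2.33, −2.38, −1.79 and −1.82 with LPS (−2.11 ± 0.112, 4.32-fold lower, adjusted p = 2.1e-10).

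Of the 7 genes of the spindle checkpoint and the anaphase-promoting complex, 6 were called lower (median −2.89). Cdc20, which activates the complex and is the target of the checkpoint, read 0.077, 0.11, 0.12 and 0.016 in the control and −4.02, −4.05, −4.05 and −4.01 with LPS, 17.3-fold lower. The SD over its 4 LPS arrays, 0.020, was the smallest of the 50 genes. Bub1, a checkpoint kinase, read −0.0024, −0.0054, −0.072 and −0.00088 in the control and −3.89, −3.84, −3.08 and −2.93 with LPS (−3.42 ± 0.169, adjusted p = 9.1e-11). Its paralogue Bub1b read −3.04, −3.17, −2.80 and −2.84 with LPS against −0.16 to −0.010. Mad2l1, which binds and blocks Cdc20, fell less, to −2.02, −1.92, −1.53 and −1.52 against 0.042 to 0.19. Ube2c, the ubiquitin-conjugating enzyme of the complex, read −2.51, −2.32, −1.74 and −1.85 against −0.12 to 0.074. The checkpoint kinase Ttk read −3.09, −3.13, −2.97 and −2.28 with LPS against −0.14 to 0.21, and only 1 of its 4 LPS arrays was well above background. Bub3, the adaptor that brings Bub1 and Bub1b to kinetochores, read −0.054, −0.15, −0.037 and −0.054 in the control and −0.70, −0.74, −0.82 and −0.83 with LPS. Its arrays did not overlap either, and it fell by 0.70 ± 0.0503 (1.62-fold, adjusted p = 6.6e-09), short of 2-fold.

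All 7 kinetochore and centromere genes were called lower (median −2.81). Cenpf, a protein of the outer kinetochore, read 0.052, −0.088, −0.11 and 0.096 in the control and −3.66, −4.48, −3.14 and −2.87 with LPS, where no array was well above background, so it was at least 3.22-fold lower (adjusted p = 4e-09). Each bound of this kind sets the mean of the brighter group against the lowest signal that was well above background on the dimmer group's arrays. It was computed with the deposited background subtraction only. Cenpf changed by −0.90 with another background correction (normexp) and by −0.94 without subtraction, both under 2-fold. The adjusted p of a gene with a bound rests on ratios read below background. Nuf2 read 0.012, 0.10, 0.10 and −0.013 in the control and −3.28, −3.49, −2.65 and −2.68 with LPS (−3.08 ± 0.149, 8.44-fold lower, adjusted p = 7.1e-11). Nuf2, Ndc80, Spc24 and Spc25 together form the Ndc80 complex, which grips microtubules, and its subunits fell to different extents. Ndc80 read −3.47, −3.59, −2.63 and −2.20 with LPS against −0.30 to −0.11, and Spc25 read −2.97, −2.92, −2.85 and −2.88 against −0.076 to 0.11. Spc24 had the smallest called change of the 50. It read −0.0085, −0.021, −0.027 and −0.074 in the control and −1.33, −1.28, −0.78 and −0.87 with LPS (−1.03 ± 0.0976, 2.04-fold lower, adjusted p = 1.5e-07), and its call ended without replicate a (−0.94) or b (−0.95). Cenpa, the histone H3 variant that marks centromeres, read −2.33, −2.37, −2.02 and −1.94 against 0.063 to 0.11. Cenpe, a kinesin that moves chromosomes to the spindle equator, read −3.64, −3.65, −1.90 and −1.88 against −0.00060 to 0.084, with replicates a and b well below c and d.

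The chromosomal passenger complex corrects wrong attachments and later steers cytokinesis, and its 4 subunits were all called lower (median −2.99). Aurkb, its kinase, read −0.077, 0.0094, −0.072 and 0.26 in the control and −5.41, −4.41, −3.12 and −3.82 with LPS, with no LPS array well above background, so it was at least 5.68-fold lower (adjusted p = 1.5e-08). Birc5 (survivin) read −0.081, −0.017, −0.048 and −0.041 in the control and −4.18, −4.22, −3.03 and −3.13 with LPS (−3.59 ± 0.215, 12.1-fold lower, adjusted p = 7.7e-10). Cdca8 (borealin) read −2.40, −2.48, −2.41 and −2.37 with LPS against −0.069 to 0.014, a tight set of values. Incenp, the scaffold, read 0.13, 0.079, −0.00058 and 0.064 in the control and −0.92, −1.21, −1.11 and −1.13 with LPS (−1.16 ± 0.0572, 2.24-fold lower, adjusted p = 8.3e-11). The scaffold thus changed least of the 4.

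Of the 11 motors and spindle microtubule genes, 10 were called lower and Tpx2 was not called (median −2.90). Aspm, which focuses microtubules at the spindle poles, had a fitted change of −6.29 after LPS, which cannot be ranked against that of Esco2, for which there is only a bound. It read 0.026, 0.13, −0.058 and 0.040 in the control and −6.74, −6.63, −5.75 and −5.87 with LPS, where 3 of 4 arrays were well above background. Kif11, the motor that pushes the poles apart, read 0.064, 0.23, 0.10 and 0.064 in the control and −3.71, −3.72, −3.08 and −2.92 with LPS (−3.47 ± 0.147, 11.1-fold lower, adjusted p = 1.5e-11). The motors of the central spindle fell as well. Kif20a read −3.40, −3.62, −3.25 and −3.27 with LPS against −0.11 to 0.099, Kif23 read −2.57, −2.56, −2.48 and −2.28 against 0.047 to 0.14, and Prc1, which bundles the overlapping microtubules there, read −3.10, −3.11, −2.91 and −2.89 against −0.13 to 0.016. The microtubule depolymerase Kif2c read −3.67, −3.57, −3.27 and −3.13 with LPS against −0.18 to −0.074. Kif22 and Kif4 are motors that ride on chromosome arms. Kif22 read −2.54, −2.63, −2.51 and −2.37 against 0.12 to 0.17, whereas Kif4 read −2.44, −2.37, −1.19 and −1.03 against −0.060 to −0.0045 and so fell less on replicates c and d. Nusap1, which stabilises spindle microtubules, read −3.36, −3.42, −2.50 and −2.45 against −0.068 to 0.0014, and Hmmr, a spindle pole protein, read −2.17, −2.23, −1.96 and −1.91 against 0.0030 to 0.013.

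Tpx2, which activates Aurora A and seeds microtubules near chromosomes, stood apart. Its control arrays read 0.13, −0.030, 0.078 and 0.095 and its LPS arrays 0.089, −0.14, 1.10 and 1.21. Replicates a and b lay near the reference and c and d above it, the groups overlap, and the change was 0.50 ± 0.229 (adjusted p = 0.06). It is also the only gene of the 12 with several kept probes whose probes differed in sign after LPS, 0.50 for the brighter probe used here and −0.12 for the dimmer. Of those 12 genes, the median gap between the highest and lowest probe change was 0.209, and the widest, in Birc5, was 1.08.

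The 3 cytokinesis genes were called lower (median −3.23). Racgap1, which with Kif23 forms centralspindlin, read −0.056, −0.0035, −0.089 and −0.092 in the control and −3.85, −3.88, −3.14 and −3.04 with LPS (−3.42 ± 0.151, adjusted p = 2.5e-11). Ect2, the exchange factor that activates RhoA at the equator, read 0.10, 0.079, −0.035 and 0.00080 in the control and −3.57, −3.68, −2.91 and −2.64 with LPS (−3.23 ± 0.173, 9.41-fold lower, adjusted p = 2.1e-10). Anln (anillin), a scaffold of the contractile ring, read 0.0065, −0.013, −0.054 and −0.010 in the control and −2.69, −2.75, −2.68 and −2.59 with LPS (−2.66 ± 0.0454, 6.32-fold lower, adjusted p = 1.4e-15). Anillin was the most even of the 3 over the replicates.

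All 7 genes of chromosome structure were called lower (median −2.98). Esco2, which acetylates cohesin during replication, read 0.10, 0.19, 0.10 and −0.013 in the control and −6.26, −7.53, −5.43 and −5.24 with LPS. No LPS array of Esco2 was well above background, and it was at least 29.0-fold lower (adjusted p = 3.3e-10). Ncapg, a condensin subunit, read −0.051, −0.056, −0.11 and 0.13 in the control and −4.86, −5.41, −3.71 and −2.33 with LPS (called, adjusted p = 9.6e-07). It was well above background on 1 of those 4 arrays, so the size and the spread of its LPS values are not well measured. The other condensin subunits fell too. Ncapd2 read −3.29, −3.21, −2.99 and −2.98 with LPS against −0.19 to −0.058, and Smc2 read −3.07, −3.13, −2.41 and −2.31 against −0.12 to 0.063. Smc4 changed least of the 7, from −0.14, 0.051, −0.0054 and 0.016 in the control to −2.03, −2.17, −1.79 and −1.58 with LPS (−1.87 ± 0.112, 3.67-fold lower, adjusted p = 7.9e-10). Top2a, the topoisomerase that untangles sister chromatids, read −3.44, −3.58, −2.94 and −2.91 against −0.17 to −0.089. Mki67, the proliferation marker that coats mitotic chromosomes, read −2.89, −2.89, −2.60 and −2.61 against −0.11 to −0.044.

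Once brightness was evened out between arrays by normalisation, the change lay in the sample channel. Between LPS and control arrays the 50 genes' normalised red signal differed by a median of −2.88 on the log2 scale. Their normalised green signal, which holds untreated RNA on every array, differed by a median of −0.0096 (−0.50 to 0.24). Without that step the green sums of several marker lists were higher on LPS arrays. The small green change therefore does not describe the signals as deposited.

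The fall was smaller on the second scan day. The scanner read replicates a and b on its first day and replicates c and d on its second, and both days held all 4 groups. The median LPS change of the 50 was −3.10 on the first scan day and −2.66 on the second, beside −0.059 and −0.13 over all genes. The difference between the days passed (limma interaction of group and scan day, adjusted p under 0.05 over all genes) in 37 of the 50 genes, beside 33.6% of all genes. All 37 were higher on the second day. Over all genes 4292 passed, and 1774 of those were higher on the second day, which is 13.9% of all genes. Among the 44 genes well above background on every array, 32 passed. Each day alone gave 48 calls, all of them lower on the first day, and on the second day 47 lower and Tpx2 higher. Cenpe changed by −3.70 on the first scan day and −1.91 on the second (adjusted p of the difference = 4.7e-06). Tpx2 changed by −0.077 on the first scan day and 1.07 on the second (adjusted p of the difference = 7.3e-05). Cdc20 changed by −4.13 on the first scan day and −4.09 on the second and Bub3, the 1 gene with a larger fall on the second day, by −0.62 on the first scan day and −0.78 on the second, and neither difference passed (adjusted p = 0.8 and 0.18). Scan day, slide and replicate culture go together, so which of them moves with these values cannot be told apart.

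**Figure D3:**
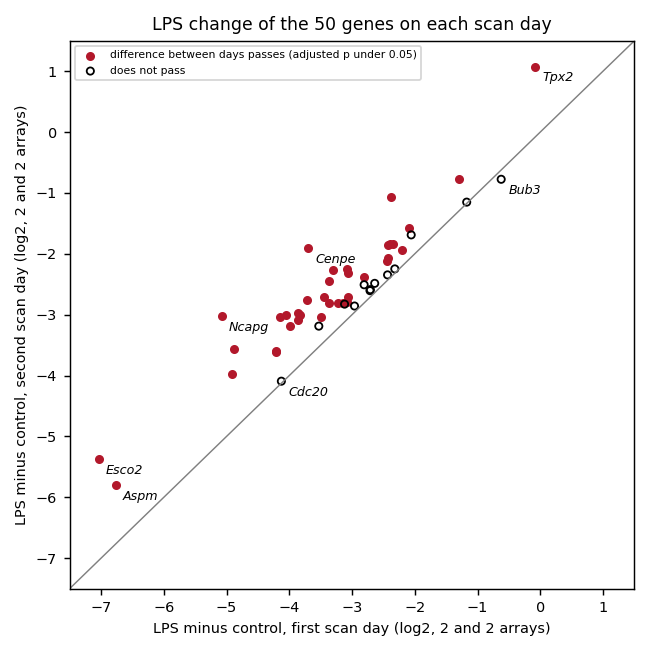
LPS change (log2, LPS minus control) of each of the 50 genes on the first scan day (x axis) and the second (y axis), from 2 LPS and 2 control arrays each; filled points passed the test of the difference between days, and the line marks equal change. Of the 50 points 49 lie above the line, and 37 are filled.

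Heme-albumin at 200 µM did not give a call in the set. With limma 0 of the 50 genes were called against the control, beside 2.99% of all genes, and a plain analysis of variance also called 0. An unadjusted limma p under 0.05 was found in 7 of the 50, beside 4296 of all 12759 genes. At an adjusted p under 0.05 and any fold, 3 of the 50 passed, all lower, beside 22.8% of all genes passing in either direction. The median change of the 50 was −0.11, beside −0.022 over all genes, and 46 of the 50 changes were below 0, beside 54.6% of all genes. In 24 of the 50 all 4 arrays lay below all 4 control arrays, beside 19.8% of all genes, and in 0 all lay above. The array medians of the 50 were −0.15, −0.082, −0.16 and −0.093 on replicates a to d. The 95% interval of the change lay within 2-fold either way in 49 of the 50 genes, the exception being Esco2 (−1.09 to 0.39). The 50 genes thus lay, in the median, slightly below the control on each array, by amounts that seldom passed the test gene by gene.

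The 3 genes that passed at any fold were Cenpa, Spc25 and Kif23. Cenpa read −0.15, −0.13, −0.31 and −0.32 at 200 µM against 0.092, 0.064, 0.11 and 0.063 in the control (−0.31 ± 0.0857, adjusted p = 0.016). Spc25 read −0.35, −0.21, −0.33 and −0.10 against −0.076, 0.11, 0.013 and −0.028 (−0.25 ± 0.0649, adjusted p = 0.011). Kif23 read −0.031, −0.069, −0.15 and −0.13 against 0.047, 0.10, 0.14 and 0.077 (−0.19 ± 0.0597, adjusted p = 0.036), and with the replicate letter as a block it did not pass (adjusted p = 0.053), leaving 2 genes beside 25.8% of all genes. In each of these all 4 treated arrays lay below all 4 control arrays, and none of the changes reached 2-fold. Top2a had the lowest mean ratio at 200 µM and read −0.34, −0.38, −0.59 and −0.38 against −0.17, −0.12, −0.089 and −0.12 (−0.30 ± 0.123, adjusted p = 0.1). The largest fitted change was that of Esco2, −0.35 ± 0.345 (adjusted p = 0.52), and the highest was that of Bub1, 0.091 ± 0.169 (adjusted p = 0.76).

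The genes that moved furthest and least after LPS stayed near the reference at 200 µM. Among the cyclins and kinases Pbk read −0.44, −0.20, −0.35 and −0.20, Ccna2 0.030, 0.020, −0.055 and −0.014 and Cdk1 −0.20, −0.21, −0.12 and −0.14. Among the checkpoint genes Cdc20 read −0.0025, 0.083, −0.19 and −0.050, Bub1 −0.011, 0.045, 0.17 and 0.081 and Bub3 −0.15, −0.17, −0.13 and 0.0073. All 4 Pbk and Cdk1 values lie below those of the control, while those of Cdc20, Bub1 and Bub3 overlap them. At the kinetochore Cenpf read 0.011, −0.000051, −0.19 and −0.017, Nuf2 −0.16, −0.14, −0.35 and −0.098 and Spc24 −0.15, −0.080, −0.15 and −0.13. In the passenger complex Aurkb read −0.19, −0.22, 0.060 and 0.054, Birc5 −0.25, −0.21, −0.21 and −0.19 and Incenp 0.0047, 0.044, 0.069 and 0.12. Nuf2, Spc24 and Birc5 lie wholly below the control, and Cenpf, Aurkb and Incenp overlap it. Of the motors and spindle genes Aspm read −0.17, −0.11, −0.21 and −0.081, Kif11 −0.096, −0.099, 0.050 and −0.0066 and Tpx2 0.057, 0.083, 0.16 and 0.032. Of the cytokinesis genes Racgap1 read −0.30, −0.18, −0.26 and −0.29, Ect2 −0.070, −0.051, −0.17 and −0.17 and Anln −0.048, −0.0087, 0.093 and −0.020. Of the chromosome genes Esco2 read −0.16, −0.23, −0.35 and −0.28, Ncapg −0.0022, −0.070, −0.10 and 0.015 and Smc4 −0.31, 0.040, −0.066 and −0.055. Aspm, Kif11, Racgap1, Ect2 and Esco2 lie wholly below the control, and Tpx2, Anln, Ncapg and Smc4 overlap it.

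At 50 µM of heme-albumin 0 of the 50 genes were called with limma, beside 0.368% of all genes, and a plain analysis of variance also called 0. At any fold 0 passed, beside 3.52% of all genes. An unadjusted limma p under 0.05 was found in 1 of the 50, beside 1736 of all 12759 genes. The median change was −0.024, beside −0.012 over all genes, and 33 of the 50 changes were below 0, beside 54.7% of all genes. Arrays lay all below the control in 3 genes (Cenpa, Kif2c and Top2a) and all above it in 2 (Cenpf and Anln), beside 10.4% and 8.74% of all genes. Spc25 had the lowest change, reading −0.26, −0.19, −0.26 and −0.057 (−0.20 ± 0.0649, adjusted p = 0.15), and Cenpf the highest, reading 0.14, 0.22, 0.51 and 0.32 (0.31 ± 0.243, adjusted p = 0.66). The interval stayed within 2-fold in 49 of the 50, the exception being Ncapg (−0.93 to 1.01). Plk1 has 3 values at this dose, 0.044, −0.029 and 0.073, because its spot on replicate a was an outlier and was left out of the fit.

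The other genes given array by array also read near the reference at 50 µM. Pbk read −0.24, −0.020, −0.22 and −0.050, Ccna2 0.083, 0.022, −0.0071 and 0.073 and Cdk1 −0.088, −0.0029, 0.0095 and 0.073. Cdc20 read 0.062, 0.16, −0.10 and −0.016, Bub1 0.061, −0.0093, 0.045 and 0.11 and Bub3 −0.020, −0.040, −0.12 and −0.0031. Nuf2 read −0.017, 0.031, −0.13 and −0.024 and Spc24 −0.072, −0.053, −0.098 and −0.094. Each of these 8 genes overlaps its control values. Aurkb read −0.13, −0.18, 0.0096 and −0.051, Birc5 −0.092, −0.092, −0.067 and −0.029 and Incenp 0.21, 0.17, 0.091 and 0.13. Aspm read −0.037, −0.067, −0.12 and 0.086, Kif11 0.12, −0.011, 0.17 and 0.21 and Tpx2 0.11, 0.050, 0.17 and 0.18. Racgap1 read −0.063, −0.065, −0.14 and −0.049, Ect2 0.077, −0.019, −0.16 and −0.0017 and Anln 0.039, 0.031, 0.13 and 0.089. In the chromosome genes, where Ncapg differed between replicates more than its neighbours, Esco2 read 0.046, −0.12, −0.25 and −0.044, Ncapg −0.16, −0.16, 0.13 and 0.26 and Smc4 −0.13, −0.062, −0.15 and 0.11.

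Between the doses, 0 of the 50 genes were called at 200 µM against 50 µM, beside 0.815% of all genes, and 0 passed at any fold, beside 7.61%. With limma 1 of the 50 had an unadjusted p under 0.05 (Cenpa, −0.21 ± 0.0857, adjusted p = 0.18), beside 2533 of all 12759 genes. The changes ran from −0.35 (Cenpf) to 0.026 (Ccnb1), with a median of −0.086 beside −0.0093 over all genes. In 46 of the 50 the change was below 0, beside 53.0% of all genes. In 11 all 200 µM arrays lay below all 50 µM arrays, beside 11.3% of all genes. Arrays of 1 letter share a slide and deviate together at the 2 doses (correlation over genes 0.368 to 0.501). Set side by side by letter, 38 of the 50 genes were lower at 200 µM in all 4 pairs, beside 25.6% of all genes, and the median difference of the 50 was −0.10, −0.067, −0.092 and −0.13 in pairs a to d. With the letter as a block 0 of the 50 passed at any fold, beside 9.55% of all genes. The interval was within 2-fold in 49 of the 50, with Ncapg (−1.03 to 0.91) outside.

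**Figure D4:**
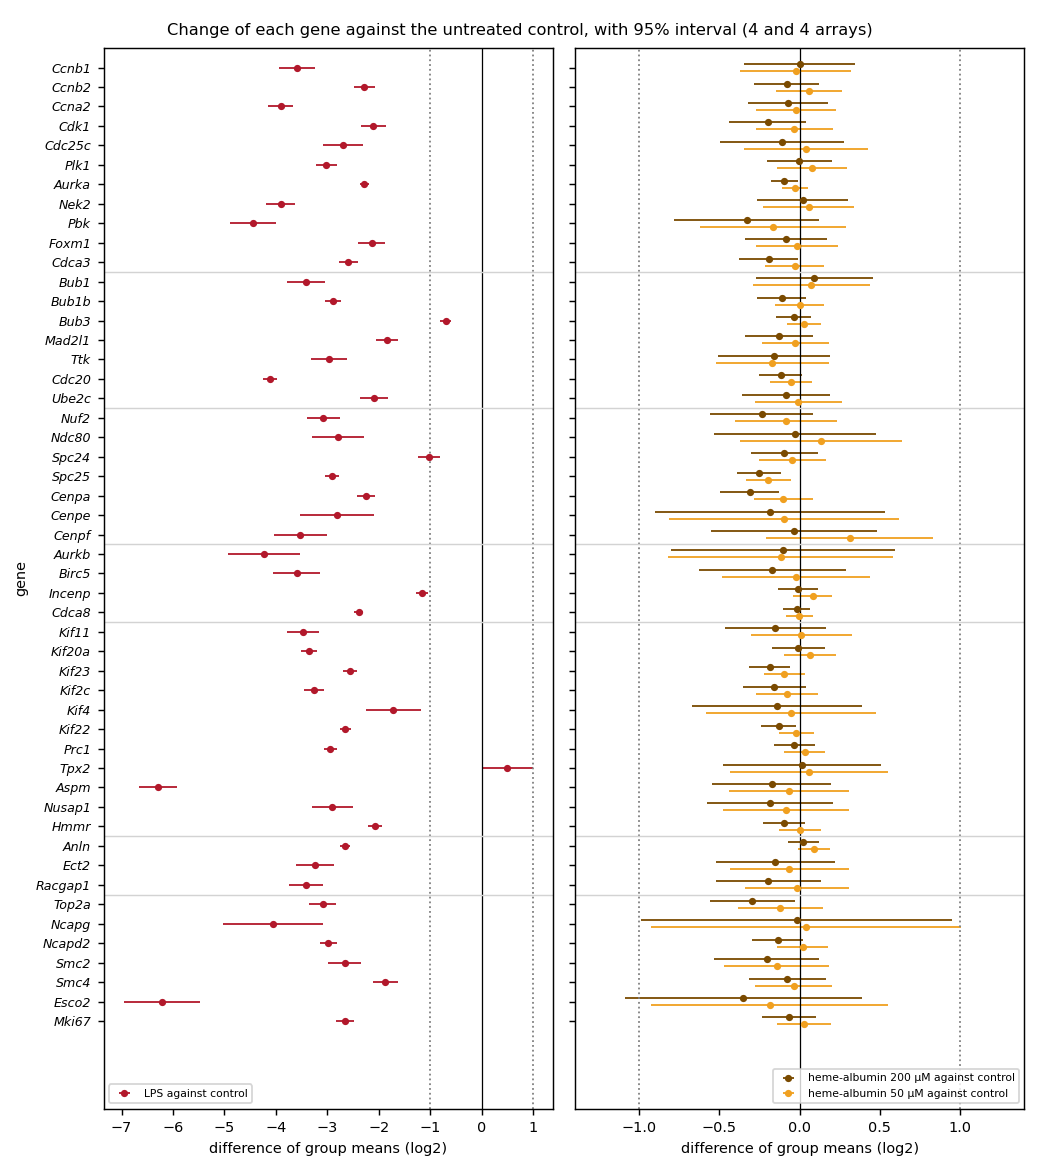
Change of each of the 50 genes against the untreated control (log2 difference of group means of 4 and 4 arrays; bars are 95% intervals of the limma fit; dotted lines mark 2-fold), after LPS on the left and after heme-albumin at 200 µM (brown) and 50 µM (orange) on the right, on a different scale. After LPS 48 genes lie beyond 2-fold below 0, and with heme-albumin all 50 lie within 2-fold at both doses.

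LPS and heme-albumin at 200 µM were both taken at 8 h, so their comparison is matched in time. In it 47 of the 50 genes were called higher with heme-albumin, beside 30.3% of all genes called and 16.8% called higher. The 47 include Aspm, Esco2, Aurkb, Ncapg, Cenpf and Ttk. These passed the filter only through groups in which they were high, so their calls and lack of overlap add no independent support. The median difference was 2.74, beside 0.10 over all genes, and in 49 of the 50 all heme-albumin arrays lay above all LPS arrays, beside 40.3% of all genes. Cdc20 differed by 3.99 ± 0.0622 (adjusted p = 6.3e-16) and Ccnb1 by 3.59 ± 0.161 (adjusted p = 3.3e-11), both well above background on all LPS arrays. Aspm, with 3 of 4 LPS arrays well above background, differed by 6.11 ± 0.174 (adjusted p = 2.3e-13). Bub3 differed by 0.66 ± 0.0503 (adjusted p = 1.3e-08) and Spc24 by 0.94 ± 0.0976 (adjusted p = 4.6e-07), both short of 2-fold. Tpx2 was the only gene of the 50 with a negative difference, −0.48 ± 0.229 (adjusted p = 0.067). This comparison uses the same LPS arrays as the comparison of LPS with the control.

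Other genes of the mitotic pathway, from a list of 100 of which 99 were measured, also fell after LPS. Of the 99, 64 were called lower and 1 higher, beside 16.7% and 14.0% of all genes, with a median of −1.54, or −1.54 with 2 dim genes at their bounds. Depdc1a was at least 23.0-fold lower (adjusted p = 4.9e-13) and Knl1, the kinetochore scaffold that Bub1 binds, at least 7.71-fold lower (adjusted p = 2.5e-10), both with no LPS array well above background. The 1 called higher was Pttg1 (securin, the inhibitor of separase), which rose by 1.83 ± 0.103 (adjusted p = 3.7e-10). At any fold 96 of the 99 passed after LPS and 91 of those were lower, beside 10058 and 5659 of all 12759 genes. Neither dose of heme-albumin gave a call in the 99, and at 200 µM 11 passed at any fold, 10 of them lower, beside 22.8% of all genes. The condensin II subunit Ncapg2 was the lowest of these (−0.77 ± 0.133, adjusted p = 0.00076), a gene named here after its value was seen.

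Of 22 measured regulators of the DREAM, B-Myb and E2F systems, 8 were called lower after LPS and 0 higher, beside 16.7% and 14.0% of all genes (median −0.66). Tfdp2, a dimer partner of E2F factors, changed by −4.72 ± 0.0706 (adjusted p = 4.7e-16, 3 of 4 LPS arrays well above background), and E2f2, an activating E2F, by −3.13 ± 0.0728 (adjusted p = 2.5e-14). Of 28 replication genes, 18 were called lower and 1 higher (median −1.39). Rrm2, the small subunit of ribonucleotide reductase, changed by −4.54 ± 0.22 (adjusted p = 7e-11) and Mcm7, a subunit of the replicative helicase, by −2.50 ± 0.138 (adjusted p = 3.2e-10). Tyms (thymidylate synthase) was the 1 called higher, by 2.64 ± 0.118 (adjusted p = 2.8e-11). Heme-albumin gave no call at either dose in these 2 lists.

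Genes that act earlier, the G1 cyclins, the CDKs and their inhibitors, were called in both directions after LPS. Of 20 measured, 5 were called higher and 3 lower, beside 14.0% and 16.7% of all genes (median 0.55). Ccnd2 (cyclin D2) rose by 3.67 ± 0.282 (adjusted p = 1.4e-08) and the stress gene Gadd45b by 3.32 ± 0.104 (adjusted p = 5.9e-13). The CDK inhibitor gene Cdkn2c changed by −4.16 ± 0.182 (adjusted p = 2.2e-11) and Cdk2 by −1.45 ± 0.0788 (adjusted p = 2.6e-10). At 200 µM of heme-albumin 2 of the 20 were called, both higher, beside 2.99% of all genes. Cdkn2b, another CDK inhibitor gene, rose by 2.74 ± 0.235 (adjusted p = 9.7e-07), and after LPS by 2.14 ± 0.235 (adjusted p = 8.1e-07). Myc rose by 1.03 ± 0.319 (adjusted p = 0.03), with arrays that overlap those of the control. Cdkn2b at 50 µM changed by 0.91 ± 0.235 (adjusted p = 0.049), under 2-fold.

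**Figure D5:**
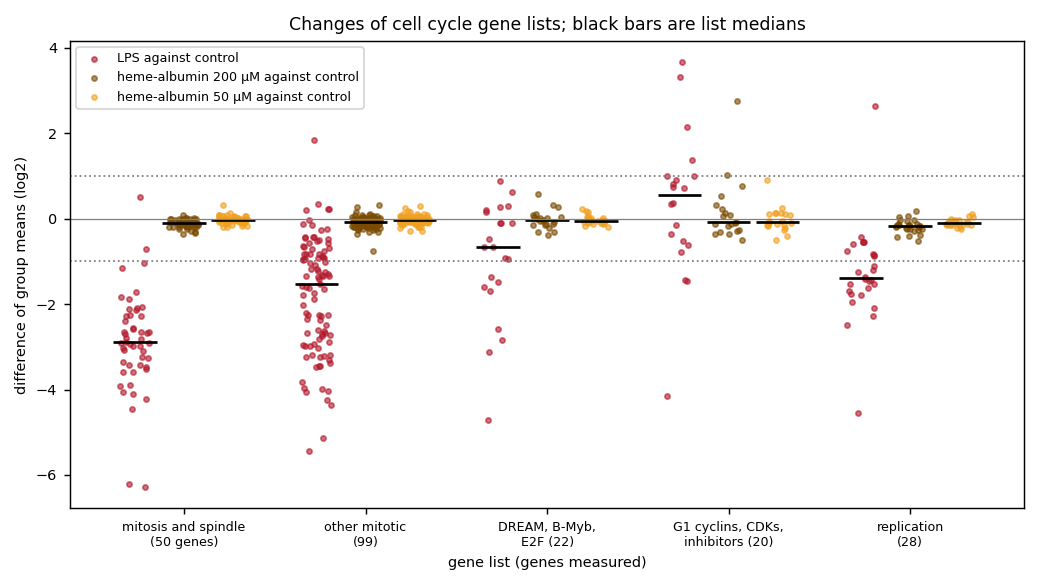
Change of every measured gene (points) of the 50 mitosis and spindle genes and of 4 other cell cycle lists (x axis, with the number measured), as log2 difference from the control after LPS (red), heme-albumin 200 µM (brown) and heme-albumin 50 µM (orange); black bars are list medians and dotted lines mark 2-fold. The LPS medians run from −2.90 in the 50 genes to 0.55 in the G1 list, and the heme-albumin points lie mostly within 2-fold.

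Depth on arrays is set by signal over background, and 49.9% to 59.4% of probes were well above background on each array. The scanner software marked 8 of the 16 arrays for evaluation. Of the control arrays only replicate b was in range, so no counts against the control are given for the in-range arrays. At 200 µM of heme-albumin and with LPS, replicates b and c were in range, so the comparison of these groups then rests on b and c alone. Between heme-albumin at 200 µM and LPS, the in-range arrays alone gave the same count of called members, 47.

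Markers of the labelled cell type and of others were compared as the red signal summed over a list, divided by the green signal of the same genes on the same array. The division was needed because arrays differ in brightness, and the green sums of several lists were higher on LPS arrays too. Of 12 macrophage markers 11 had a probe, and all 11 were well above background on every array. Their summed ratio was 0.965 to 1.02 in the control, 0.876 to 0.973 at 50 µM, 0.864 to 0.938 at 200 µM and 1.36 to 1.67 after LPS. After LPS 4 of the 11 were called higher (Adgre1, Fcgr1, Cd14 and Spi1), beside 14.0% of all genes. Another 5 passed and were lower by less than 2-fold (Csf1r, Mertk, Lyz2, C1qa and C1qb, from −0.97 in Mertk to −0.31 in C1qb). Of all 12759 genes, 5659 passed and were lower at any fold, a like share. At 200 µM Fcgr1 (−1.58 ± 0.0602, adjusted p = 4.7e-10) and Mertk (−1.04 ± 0.175, adjusted p = 0.00056) were called lower, beside 2.99% of all genes called.

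Of 9 markers of hematopoietic progenitors, a dividing cell type such a culture could hold, 2 (Cd34 and Elane) were well above background on all arrays, and Kit and Prtn3 were so on no control or LPS array. Their summed ratio was lower after LPS, 0.376 to 0.518 against 1.02 to 1.06 in the control, and was 1.05 to 1.25 at 50 µM and 1.04 to 1.35 at 200 µM. Cd34 changed by −2.22 ± 0.199 after LPS (adjusted p = 8.2e-08). Of the 10 marker lists this was the only 1 whose summed ratio lay wholly below the control after LPS, while 6 lay wholly above it and 3 overlapped it. Besides the macrophage list, the 6 were mast cell (18.3 or more against 0.997 to 1.08; Hdc called higher, Cpa3, Mcpt4, Cma1 and Fcer1a on no array), fibroblast and stromal (3.60 to 9.26 against 0.906 to 1.23; Dcn and Pdgfrb called higher, Col1a1 on no control or LPS array), endothelial (1.32 to 1.79 against 0.921 to 1.03; Pecam1 and Cdh5 called higher, Emcn on no array), neutrophil (1.25 to 1.30 against 0.961 to 0.994; S100a8 and Camp called higher) and embryonic stem cell (1.07 to 1.24 against 0.921 to 1.01; none called). Dcn was well above background on 0 of 4 control arrays and passed the filter only through LPS, so its call adds no independent support. Pdgfrb and Hdc were so on 2 of 4 control arrays and Cdh5 on 3. Col1a2 (−0.23 ± 0.431, adjusted p = 0.64) and Tpsb2 (0.098 ± 0.153, adjusted p = 0.57) were not called after LPS. Both were well above background on all control and LPS arrays, and Pdgfra was so on no array. Of the 4 neutrophil markers measured, the other 2 passed by less than 2-fold in opposite directions. S100a9 was higher (0.58 ± 0.177, adjusted p = 0.0075) and Mmp8 was lower (−0.69 ± 0.220, adjusted p = 0.01). Of the 8 embryonic stem cell markers Nanog, Esrrb, Tdgf1 and Lin28a were well above background on all control arrays, and the defining genes Pou5f1, Sox2 and Zfp42 on no array. The dendritic cell (0.738 to 1.07 against 0.863 to 0.964), lymphocyte (1.04 to 1.20 against 0.992 to 1.12) and erythroid (0.785 to 1.13 against 0.866 to 1.01) lists overlapped the control and held no called gene. The part of other cell types in the changes of the 50 genes was not tested.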

How the data were processed

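RNA from 16 samples was measured on Agilent arrays. The deposited LogRatio column gives log10 of red over green for each spot. Per the file headers, background was subtracted and dyes were balanced with linear and lowess steps (Agilent Feature Extraction, version 10.7.3.1, in the submitters' processing notes). Median and processed signals, also deposited, are the intensity of a spot in either colour. Per the labels, the authors took the log10 ratios into an analysis of variance with no further normalisation. The series' value table repeats the LogRatio columns exactly.

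Control and outlier spots were left out and spots of a probe were averaged. Of 39429 probes, 27234 were named through their accession and RefSeq (GRCm38.p6). The array design uses another build (mm9), so no gene positions are given. Probes stayed in where some group had them well above background in red on its 4 arrays, and the brightest probe stood for a gene. Log2 ratios of 12759 genes were fitted with limma 3.58.1 in R 4.3.3 (1 mean per group, all 16 arrays, no block), with Benjamini-Hochberg adjustment over all genes in each of 5 comparisons. Reading used data.table (version 1.17.8) and plots matplotlib (version 3.10.9). The code was tested on simulated data. A list's median is a description with no test.

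The 50 genes and all lists were chosen with earlier results of these data known. Genes given array by array are, in each role, those with the 2 largest changes and the smallest change after LPS. The rule also names every gene called between heme-albumin and LPS, 47 genes, of which those not so picked are given with their 4 LPS values and their control range. Of other lists, the 2 largest called changes each way after LPS and the genes called with heme-albumin are named.

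Each slide holds 1 array of every group, with 1 replicate letter. Deviations from the group means correlated between same-lettered arrays at 0.0988 to 0.113 for LPS and control and at 0.105 or more in the other 4 comparisons. The lowest of these hardly differ, so no line is drawn between paired and unpaired comparisons. The main fit has no block, and the replicate block was run as an alternative for all comparisons. Alternatives were other background corrections, centring, the red channel alone, other probe filters, the replicate and scan day blocks, each scan day, a plain analysis of variance, no fold minimum and leaving out each replicate.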

Additional observations from a re-analysis of the deposited data

Results flagged for a closer look

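The change after LPS differed between the 2 scan days in 37 of the 50 genes (limma interaction of group and scan day, adjusted p under 0.05), each with a value higher on the second day.

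In 9 of 199 groups of 4 array values, 1 array lay apart from the other 3 by more than Dixon's critical value, and chance alone puts about 1 in 20 groups past it. In the control these were Ccna2 on replicate d (0.022), Bub1 on replicate c (−0.072), Bub3 on replicate b (−0.15), Ttk on replicate a (−0.14), Kif22 on replicate d (0.17) and Smc2 on replicate b (0.063). At 200 µM of heme-albumin they were Plk1 on replicate a (−0.13), Cenpf on replicate c (−0.19) and Top2a on replicate c (−0.59). None was an LPS or a 50 µM array.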

How the results depend on the processing

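No result changed direction past a threshold under any alternative run. The median LPS change of the 50 genes was −2.48 with normexp and −2.49 without background subtraction, against −2.90, and under the other alternatives it lay between −3.10 (first scan day alone) and −2.66 (second scan day alone). Called genes after LPS were 45 with normexp, 46 without background subtraction, 47 with arrays centred on their median, 42 of 44 with only probes well above background on all arrays, and 47 to 48 leaving out each replicate. Spc24 lost its call with normexp (−0.997), without background subtraction (−0.98), with centring (−0.94) and on the second scan day alone (−0.77). Ttk lost it with normexp (−0.99), as did Cenpf (−0.90), which also lost it without background subtraction (−0.94). With no fold minimum, 3 of the 50 passed at 200 µM. The replicate block, which treats arrays of 1 letter as paired, left the counts at 48, 0, 0, 0 and 47 in the 5 comparisons. At any fold it took the genes passing at 200 µM from 3 to 2 (Kif23, adjusted p = 0.053). Over all genes, calls at 200 µM numbered 382, but 151 with normexp and 229 without background subtraction. At 50 µM they numbered 47, but 19 with normexp and 29 without background subtraction. Between the doses they numbered 104, but 31 with normexp and 31 on the in-range arrays. Genes below background on LPS arrays have only a bound, and 4 arrays a group limit the precision of the small heme-albumin changes.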
